A study of Mus musculus with 32 samples.

Results

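The 8 mouse genes Papola, Papolb, Cstf2, Cstf2t, Pabpc1, Pabpc2, Pabpc4 and Pabpn1 encode proteins that make the poly(A) tail of an mRNA or bind to it. They were chosen by name from the poly(A) machinery, without use of a measured value, although earlier results of these data were known. They were found by their symbols in the GENCODE mouse annotation among 20368 genes of the juvenile gene table. All 8 were also in the adult table. The tables held RNA-seq of poly(A) RNA from germ cells of individual C57BL/6J males during the first wave of spermatogenesis, for 3 mice at 8 days post partum (dpp), left after samples of that age unlike the others had been dropped, and for 5 mice at each of 10, 12, 14, 16 and 18 dpp. An additional 4 adult samples held pachytene and diplotene spermatocytes enriched by sedimentation at unit gravity, each pooled from 6 C57BL/6J males of 9 weeks. No group carried a mutation or a treatment, and age was the only factor that the juvenile groups were set up to compare. The juvenile samples were mixtures of spermatogonia and spermatocytes, so that in these bulk samples fewer cells of a type and less RNA per cell cannot be told apart.

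An mRNA receives its tail in the nucleus. The cleavage stimulation factor CstF, through its RNA-binding subunit CSTF2, holds the sequence downstream of the cleavage site, and the poly(A) polymerase PAPOLA then adds adenosines while the nuclear poly(A) binding protein PABPN1 sets the tail's length. In the cytoplasm the tail is covered by PABPC proteins, which link it to the translation initiation factors. Male germ cells are known for intronless copies of several of these genes, among them Papolb, whose product is a poly(A) polymerase of spermatogenic cells, Cstf2t, which encodes a CSTF2 variant needed for male fertility, and Pabpc2, a poly(A) binding protein of the testis. The comparison of interest was therefore between the testis paralogs and their widely expressed counterparts over the course of meiosis.

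Levels are given in TPM, the abundance of a gene's transcripts relative to all transcripts of its library, a unit that is scaled for transcript length and can be compared between genes. Fold changes are differences of mean log2(TPM + 1), which understates the change of genes near 0. Ages were compared with limma over all 20368 genes, and a gene was called when its Benjamini-Hochberg adjusted p-value was under 0.05. Samples of the same age correlated with r of 0.947 to 0.984 over 53 pairs of mice. The sum of 8 spermatocyte markers (Sycp1, Sycp3, Hormad1, Piwil1, Ccna1, Pgk2, Adam3 and Ldhc) rose from 210 to 314 TPM at 8 dpp to 3080 to 4964 TPM at 18 dpp and was 9655 to 10040 TPM in adult samples, and all 8 markers were called higher at 18 than at 8 dpp. Most of that sum was Ldhc, with means of 2396 TPM at 18 dpp and 6852 TPM in adult samples, beside mean sums of 4170 and 9818 TPM. From 18 dpp to adult samples, mean levels of Sycp1, Sycp3 and Hormad1 went down, from 231, 502 and 291 TPM to 106, 375 and 189 TPM. Those of Piwil1, Ccna1, Pgk2, Adam3 and Ldhc went up. The sum of 6 spermatogonium markers was 568 to 668 TPM at 8 dpp and 232 to 312 TPM at 18 dpp, and all 6 were called lower. Somatic RNA was also present. The sum of 8 Sertoli cell markers was 6932 to 7805 TPM at 8 dpp, 3229 to 4195 TPM at 18 dpp and 293 to 430 TPM in adult samples, with none at 0, and all 8 were called lower at 18 than at 8 dpp. The part of these cell types in the results below was not tested.

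All 8 genes differed among the 6 ages, as did 77.6% of all genes, and all 8 were called between 18 and 8 dpp, as were 68.2% of all genes. Papolb, Cstf2t, Pabpc1 and Pabpc2 were higher at 18 dpp, where 31.8% of all genes were higher, and Papola, Cstf2, Pabpc4 and Pabpn1 were lower, where 36.3% were lower. The median log2 fold change from 8 to 18 dpp was 0.17 over the 8 genes and -0.09 over all genes tested. For 7 of the 8 genes the mice of 8 and 18 dpp did not overlap, Papola being the exception, and the same was true of 61.0% of all genes. The median of all genes moved to 0.05 with median-of-ratios factors and to -0.26 with quantile normalization, so that fold changes of this size cannot be read as a change of a single gene. The fall of Papola was within that size, and it was -0.01 with an adjusted p of 0.939 with median-of-ratios factors.

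**Figure D1:**
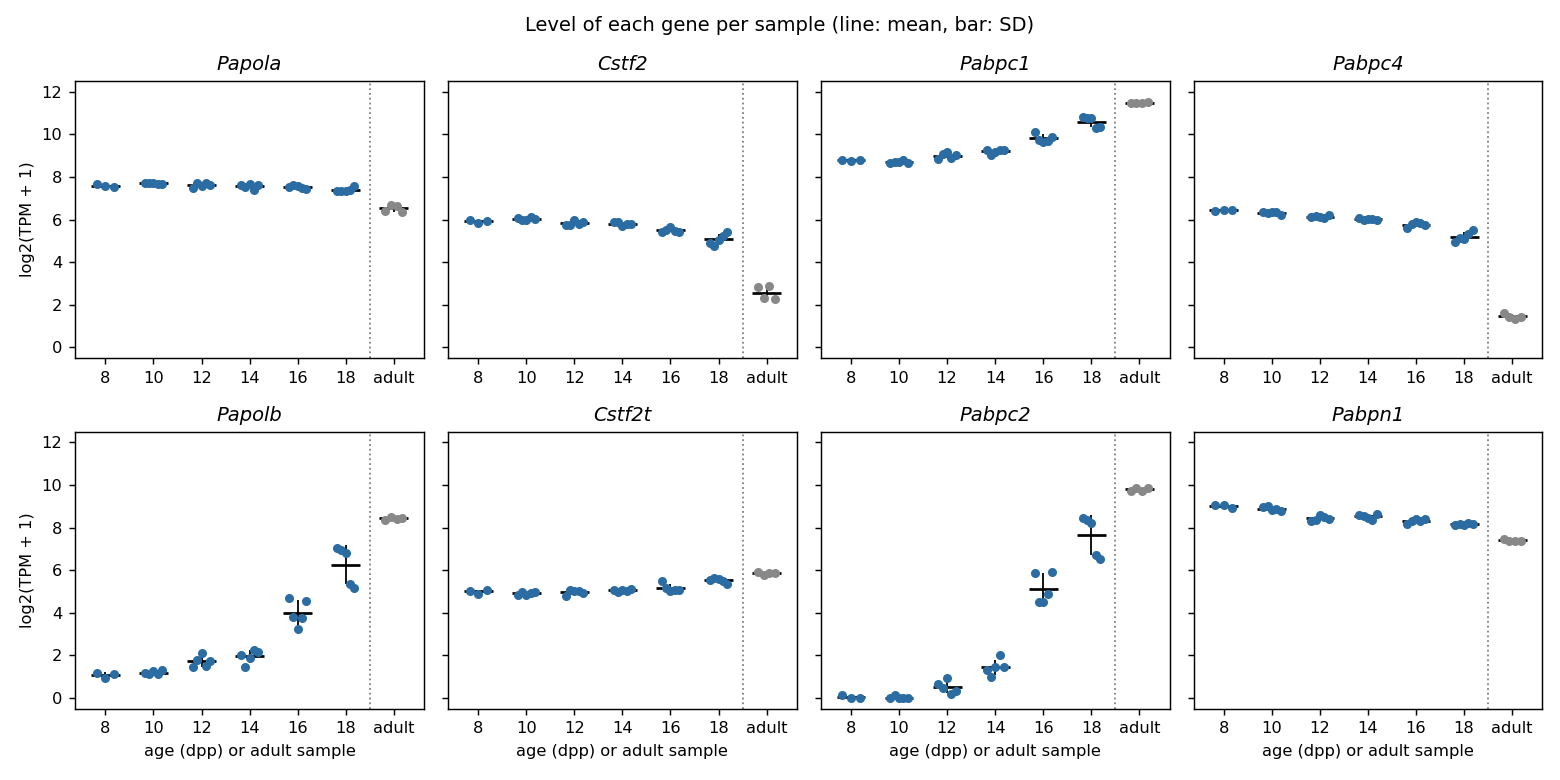
Each point is 1 sample, placed by age in dpp or in the adult group (grey, from a separate table) and by log2(TPM + 1) of the gene named above the panel, with black lines for the mean and vertical bars for the SD of 3 to 5 samples. Papolb and Pabpc2 start near 0 and reach means of 6.25 and 7.65 at 18 dpp, whereas the means of Papola stay between 7.40 and 7.70 over the juvenile ages.

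Papola (ENSMUSG00000021111, GRCm38 chr12:105784694-105838944, plus strand) encodes the canonical nuclear poly(A) polymerase, and its most abundant transcript had 22 exons. Its levels were 202, 189 and 183 TPM in mice 1 to 3 at 8 dpp, and 163, 162, 163, 164 and 191 TPM in mice 1 to 5 at 18 dpp. The mice of the youngest and the oldest juvenile age thus overlapped, since mouse 5 of 18 dpp lay among the mice of 8 dpp. Means of the ages between them ran from 207 ± 5.59 TPM (SD, n = 5) at 10 dpp to 183 ± 9.18 TPM (SD, n = 5) at 16 dpp. The log2 fold change from 8 to 18 dpp was -0.18 ± 0.0678 (SE; adjusted p = 0.0193), and no pair of neighbouring ages differed (lowest adjusted p = 0.0812, 18 against 16 dpp, which was called without mouse 5 of 18 dpp at an adjusted p of 0.0134, with quantile normalization at -0.25 and an adjusted p of 0.00303, and in mice 1 to 3 alone at -0.22 and an adjusted p of 0.00566). Without mouse 1 of 8 dpp the fold change was -0.14 and was no longer called. In the adult samples Papola stood at 84.9, 101, 100.1 and 81.6 TPM, below every juvenile mouse.

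Papolb (ENSMUSG00000074817, GRCm38 chr5:142525838-142530076, minus strand) has a single exon. Levels were 1.30, 0.91 and 1.21 TPM at 8 dpp and 1.17 to 3.76 TPM in the 15 mice of 10 to 14 dpp. At 16 dpp the 5 mice had 24.6, 13.1, 8.35, 12.6 and 22.8 TPM, and at 18 dpp they had 129, 121, 110.2, 39.7 and 34.8 TPM. Every mouse of 16 dpp was above every mouse of 14 dpp, and every mouse of 18 dpp was above every mouse of 16 dpp. The log2 fold change was 2.06 ± 0.296 from 14 to 16 dpp (SE; adjusted p = 7.56e-06), 2.24 ± 0.296 from 16 to 18 dpp (SE; adjusted p = 2.27e-06) and 5.16 ± 0.342 from 8 to 18 dpp (SE; adjusted p = 4.77e-13). Of the earlier steps, 12 against 10 dpp gave 0.52 ± 0.296 (SE) and was not called (adjusted p = 0.233), although the mice of these ages did not overlap. Adult samples held 332, 356, 333 and 353 TPM. The gene lies within the interval of Radil on the same strand, and Radil, a gene of cell adhesion, averaged 23.9 TPM in mice of 8 dpp, 58.6 TPM in those of 18 dpp and 44.2 TPM in adult samples.

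Papolb coded for 642 amino acids and Papola for 739. Their coding sequences were identical at 1640 of 1926 aligned bases (85.2%). None of the 4140 windows of 100 bases, the read length, of the Papolb transcript was found in the main Papola transcript with up to 2 mismatches, and no window of either transcript was found exactly in a transcript of another gene in GENCODE M21. A stretch of 60 coding bases from the middle of the alignment is shown as an example, with the 5 bases that differ in capitals. It is more alike than the alignment as a whole and does not give the distance between the copies. It covers coding bases 1082 to 1141 of Papolb, chr5:142528746-142528805 on the minus strand, and bases 1079 to 1138 of Papola, which on chromosome 12 run from position 105813246 to position 105818378 on the plus strand across an intron.
Papolb: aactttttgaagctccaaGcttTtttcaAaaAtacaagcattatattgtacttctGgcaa
Papola: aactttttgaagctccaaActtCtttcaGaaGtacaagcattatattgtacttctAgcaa

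The balance between both polymerases was followed as the log2 ratio of (TPM + 1) within each mouse, which does not depend on how a library was scaled apart from the added 1. Over the 4 paralog pairs and 6 pairs of ages this gave 24 comparisons with two-sided exact permutation tests, adjusted together. With 3 against 5 mice the smallest p these tests allow is 0.0357, and with 5 against 5 it is 0.00794. The Papolb/Papola log2 ratio was -6.49 ± 0.13 (SD, n = 3) at 8 dpp, -3.51 ± 0.64 (SD, n = 5) at 16 dpp and -1.15 ± 0.99 (SD, n = 5) at 18 dpp. The change from 8 to 18 dpp was 5.34 (exact p = 0.0357, adjusted p = 0.0476). For this and the other 3 pairs, that call was lost when any mouse of 8, 10 or 18 dpp was left out (exact adjusted p = 0.0504 to 0.127), with the direction kept. Ratios also rose by 0.60 from 10 to 12 dpp, by 2.11 from 14 to 16 dpp and by 2.36 from 16 to 18 dpp (exact adjusted p = 0.0173 each), and not detectably from 8 to 10 dpp (exact p = 1.0) or from 12 to 14 dpp (exact p = 0.230). As a share of the summed TPM of both genes, Papolb made up 0.480% to 0.657% at 8 dpp, 4.26% to 11.8% at 16 dpp and 15.4% to 44.2% at 18 dpp. It was below Papola in all 5 mice of 18 dpp and above it in all 4 adult samples, where its share was 76.9% to 81.2%. The sum of both genes was 192 ± 9.76 TPM (SD, n = 3) at 8 dpp, 255 ± 38.4 TPM (SD, n = 5) at 18 dpp and 435 ± 16.5 TPM (SD, n = 4) in adult samples.

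Cstf2 (ENSMUSG00000031256, GRCm38 chrX:134059187-134086819, plus strand) encodes the RNA-binding subunit of the cleavage stimulation factor in most tissues, and lies on the X chromosome, which as background is silenced in pachytene spermatocytes. Its levels were 62.5, 57.2 and 59.7 TPM at 8 dpp, 42.0, 44.2, 49.2, 43.8 and 41.4 TPM at 16 dpp, and 29.3, 26.0, 31.7, 36.0 and 42.1 TPM at 18 dpp. The mice of 16 and 18 dpp overlapped, through mouse 5 of 18 dpp, and those of 8 and 18 dpp did not. Cstf2 fell by 0.31 ± 0.0851 on the log2 scale from 14 to 16 dpp (SE; adjusted p = 0.00848), by 0.42 ± 0.0851 from 16 to 18 dpp (SE; adjusted p = 1.79e-04) and by 0.86 ± 0.0983 from 8 to 18 dpp (SE; adjusted p = 1.66e-08). Without mice 1 and 5 of 16 dpp, the step from 14 to 16 dpp was -0.26 with an adjusted p of 0.104. The adult samples held 6.09, 4.06, 6.34 and 3.77 TPM, below every juvenile mouse. The end of Cstf2 overlaps the antisense gene Nox1, which shared 300 of 4403 windows of 100 bases with it and whose means at 8 and 18 dpp were 3.21 and 2.16 TPM. Whether the libraries kept the strand was not stated, so reads of the overlap cannot be assigned with certainty.

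Cstf2t (ENSMUSG00000053536, GRCm38 chr19:31082837-31087069, plus strand) is a single-exon gene for the variant tauCstF-64 and lies within the interval of Prkg1, which is on the minus strand and had means of 3.61 and 7.17 TPM at 8 and 18 dpp. Its levels were 31.9, 29.0 and 32.3 TPM at 8 dpp and 27.1 to 33.6 TPM in the 15 mice of 10 to 14 dpp. At 16 dpp they were 44.0, 34.7, 32.1, 32.3 and 32.2 TPM, and at 18 dpp 45.3, 49.0, 47.5, 43.8 and 39.5 TPM. Only mouse 1 of 16 dpp reached the range of 18 dpp, and every mouse of 18 dpp was above every mouse of 8 dpp. The log2 fold change was 0.36 ± 0.0753 from 16 to 18 dpp (SE; adjusted p = 2.73e-04) and 0.52 ± 0.0870 from 8 to 18 dpp (SE; adjusted p = 7.76e-06), and no earlier step was called (lowest adjusted p = 0.325). Adult samples held 58.7, 54.2, 57.7 and 56.6 TPM. Unlike Papolb and Pabpc2, Cstf2t was thus well above 0 in every mouse of 8 and 10 dpp.

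The Cstf2t/Cstf2 log2 ratio was -0.92 ± 0.05 (SD, n = 3) at 8 dpp, -1.13 ± 0.08 (SD, n = 5) at 10 dpp, -0.33 ± 0.25 (SD, n = 5) at 16 dpp and 0.45 ± 0.37 (SD, n = 5) at 18 dpp. It rose by 1.37 from 8 to 18 dpp (exact p = 0.0357, adjusted p = 0.0476), with steps of 0.25 from 10 to 12 dpp (exact adjusted p = 0.0173), 0.42 from 14 to 16 dpp and 0.78 from 16 to 18 dpp (exact adjusted p = 0.0293 each). From 8 to 10 dpp it dropped by 0.21 (exact adjusted p = 0.0476) at the smallest p that these mice allow, and this was not called when any mouse of 8, 10 or 18 dpp was left out (exact adjusted p = 0.0612 to 0.127). The step from 16 to 18 dpp was not called without mouse 1, 2, 3 or 4 of 18 dpp (exact adjusted p = 0.0586). Cstf2t was above Cstf2 in none of the 18 mice of 8 to 14 dpp, in 1 of 5 mice at 16 dpp, in 4 of 5 mice at 18 dpp and in 4 of 4 adult samples. Its share of the pair's TPM was 33.7% to 35.1% at 8 dpp, 48.4% to 65.3% at 18 dpp and 90.1% to 93.8% in adult samples. The sum of both genes was 90.9 ± 4.21 TPM (SD, n = 3) at 8 dpp, 78.0 ± 3.08 TPM (SD, n = 5) at 18 dpp and 61.9 ± 3.11 TPM (SD, n = 4) in adult samples. The sums of 16 dpp (79.1 ± 4.77 TPM, SD, n = 5) and 18 dpp, between which the ratio crossed equality, overlapped, and the sums carry no test.

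**Figure D2:**
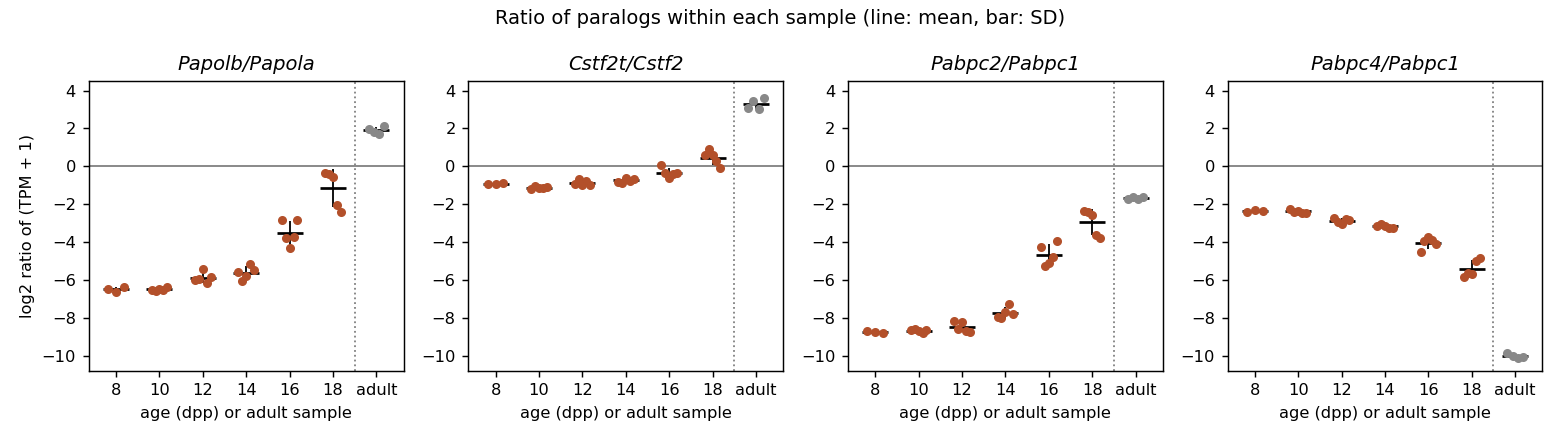
The log2 ratio of (TPM + 1) of the genes named above each panel is plotted per sample against age in dpp, with the adult samples in grey, black lines for means, vertical bars for the SD and a grey line at equal levels. Cstf2t/Cstf2 crosses equality between 16 and 18 dpp, Papolb/Papola is above it in adult samples alone, and both Pabpc ratios remain below it in every sample.

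Cstf2t and Cstf2 had diverged further than the polymerases, with 1281 of 1725 aligned coding bases identical (74.3%). No window of 100 bases of Cstf2t was found in the main Cstf2 transcript with up to 2 mismatches. The stretch of 60 coding bases from the middle of their alignment had 20 differences, in capitals, and covered coding bases 929 to 988 of Cstf2t, chr19:31083994-31084053 on the plus strand, and bases 872 to 931 of Cstf2, which on chromosome X run from position 134069890 to position 134073177 on the plus strand across an intron.
Cstf2t: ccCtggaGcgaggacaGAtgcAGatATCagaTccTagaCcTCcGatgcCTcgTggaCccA
Cstf2: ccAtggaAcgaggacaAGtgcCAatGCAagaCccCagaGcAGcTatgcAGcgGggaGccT

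The 250 bases before the transcription start were compared for the same 4 genes because the members of each pair moved apart. They are shown with matches to 6 motifs in capitals, searched on both strands: the cAMP response element TGACGTCA, its core TGACG, which is contained in it, the MYB core CAACNG, the RFX core GTTGCC, the CCAAT box CCAAT and the TATA element TATAAA. Sequences and starts are those of RefSeq on GRCm38.p6, which held a promoter for 6 of the members looked up. Pabpc2 was not looked up. The background was 32851 promoters. The window of Papolb was chr5:142530077-142530326 on the minus strand, that of Papola chr12:105784447-105784696 on the plus strand, that of Cstf2t chr19:31082591-31082840 on the plus strand and that of Cstf2 chrX:134058926-134059175 on the plus strand.
Papolb: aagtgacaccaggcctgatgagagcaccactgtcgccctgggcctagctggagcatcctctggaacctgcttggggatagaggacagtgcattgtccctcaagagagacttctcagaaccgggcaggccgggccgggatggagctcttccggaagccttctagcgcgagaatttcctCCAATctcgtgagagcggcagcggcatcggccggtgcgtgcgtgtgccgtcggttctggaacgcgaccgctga
Papola: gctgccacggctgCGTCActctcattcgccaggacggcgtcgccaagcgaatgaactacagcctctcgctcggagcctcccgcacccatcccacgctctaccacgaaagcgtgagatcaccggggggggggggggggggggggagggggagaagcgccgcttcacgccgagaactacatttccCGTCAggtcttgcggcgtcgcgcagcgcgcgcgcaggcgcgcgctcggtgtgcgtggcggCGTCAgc
Cstf2t: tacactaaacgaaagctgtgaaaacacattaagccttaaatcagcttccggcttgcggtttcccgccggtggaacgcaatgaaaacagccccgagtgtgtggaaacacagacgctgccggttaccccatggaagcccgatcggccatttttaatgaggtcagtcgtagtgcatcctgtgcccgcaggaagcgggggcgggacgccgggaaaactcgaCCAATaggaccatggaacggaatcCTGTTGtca
Cstf2: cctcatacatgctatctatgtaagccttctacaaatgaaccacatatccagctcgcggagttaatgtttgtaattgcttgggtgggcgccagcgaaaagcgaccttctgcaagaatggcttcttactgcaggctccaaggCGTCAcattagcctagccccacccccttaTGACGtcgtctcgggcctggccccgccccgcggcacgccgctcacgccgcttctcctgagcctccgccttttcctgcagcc

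None of these windows held TGACGTCA, found in 1.55% of all promoters. The core TGACG was present 3 times before Papola and 2 times before Cstf2, and in neither testis paralog, against 17.8% of all promoters with at least 1 match. CCAAT was found 73 bases before the start of Papolb and 33 bases before that of Cstf2t and not before their counterparts (33.8% of all promoters). A MYB core began 9 bases before the start of Cstf2t (29.3% of all promoters), and neither GTTGCC (10.4%) nor TATAAA (12.4%) was found in the 4 windows. CCAAT and the MYB core were not limited to testis paralogs among the members. The window of Pabpn1, not shown, held CCAAT 97 and 23 bases before the start, a MYB core at 213 and TGACG at 247. That of Pabpc4, not shown, held TATAAA at 155 and none of the other motifs. CpG dinucleotides numbered 34 before Papola, 19 before Papolb, 17 before Cstf2 and 19 before Cstf2t, where the median promoter had 6. These are matches of letters and say nothing of whether a factor binds there.

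Pabpc1 (ENSMUSG00000022283, GRCm38 chr15:36595661-36609668, minus strand) encodes the main cytoplasmic poly(A) binding protein and was the most abundant of the 8 genes from 12 dpp on. Levels were 445, 432 and 446 TPM at 8 dpp, 1112, 853, 789.9, 831 and 949 TPM at 16 dpp, and 1787, 1753, 1725, 1268 and 1294 TPM at 18 dpp. No mouse of 18 dpp overlapped with a younger one. Pabpc1 rose by 0.30 ± 0.0940 on the log2 scale from 10 to 12 dpp (SE; adjusted p = 0.0222), by 0.62 ± 0.0940 from 14 to 16 dpp (SE; adjusted p = 1.52e-05), by 0.78 ± 0.0940 from 16 to 18 dpp (SE; adjusted p = 1.33e-06) and by 1.81 ± 0.108 from 8 to 18 dpp (SE; adjusted p = 6.72e-14). The step from 10 to 12 dpp was not called without mouse 1 of 10 dpp (adjusted p = 0.0546), without mouse 2 (adjusted p = 0.0530) or mouse 3 (adjusted p = 0.0675) of 12 dpp, or with median-of-ratios factors (adjusted p = 0.0730) or no filter (adjusted p = 0.0655). Adult samples held 2847, 2833, 2818 and 2930.0 TPM, and 145 of its 2718 windows of 100 bases were also found in 2 other annotated genes.

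Pabpc2 (ENSMUSG00000051732, GRCm38 chr18:39773497-39776082, plus strand) is a single-exon paralog of Pabpc1, with 1566 of 1884 aligned coding bases identical (83.1%). None of its 2487 windows of 100 bases was found exactly in another gene of GENCODE M21. It was listed at 0.09, 0 and 0 TPM at 8 dpp and at 0, 0.10, 0, 0 and 0 TPM at 10 dpp. From there levels climbed to 0.13 to 0.94 TPM at 12 dpp and 1.01 to 3.00 TPM at 14 dpp. At 16 dpp the mice had 57.5, 21.5, 21.8, 28.8 and 60.3 TPM, and at 18 dpp 350.3, 328, 292, 103 and 91.6 TPM. From 10 dpp on, each age lay above the one before it with no overlap. The rise of 0.92 ± 0.322 on the log2 scale from 12 to 14 dpp was not called (SE; adjusted p = 0.303), while those of 3.70 ± 0.322 from 14 to 16 dpp (SE; adjusted p = 3.03e-09), 2.51 ± 0.322 from 16 to 18 dpp (SE; adjusted p = 1.79e-06) and 7.61 ± 0.372 from 8 to 18 dpp (SE; adjusted p = 1.42e-15) were. The first step, 12 against 10 dpp, was 0.50 and not called (adjusted p = 0.309), but with a pseudocount of 0.1 it was 2.10 (adjusted p = 0.000700). Adult samples held 847, 930, 842 and 937 TPM.

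Pabpc2 did not overtake Pabpc1 in any sample. The log2 ratio was -8.75 ± 0.07 (SD, n = 3) at 8 dpp and -2.95 ± 0.70 (SD, n = 5) at 18 dpp, a change of 5.80 (exact p = 0.0357, adjusted p = 0.0476) that depended on the pseudocount and was 4.26 with 3 and 8.85 with 0.1. Its ratio rose by 0.73 from 12 to 14 dpp, by 3.08 from 14 to 16 dpp and by 1.73 from 16 to 18 dpp (exact adjusted p = 0.0173 each). Pabpc2 made up 6.61% to 16.4% of the pair's TPM at 18 dpp and 22.9% to 24.7% in adult samples.

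Pabpc4 (ENSMUSG00000011257, GRCm38 chr4:123262351-123298925, plus strand), which encodes a second widely expressed cytoplasmic poly(A) binding protein, went the other way. Its levels were 84.2, 86.7 and 85.8 TPM at 8 dpp, 47.1, 54.5, 57.3, 55.4 and 53.5 TPM at 16 dpp, and 29.7, 33.8, 32.8, 38.6 and 44.9 TPM at 18 dpp. Every mouse of 18 dpp was below every younger mouse. Pabpc4 fell by 0.25 ± 0.0731 on the log2 scale from 14 to 16 dpp (SE; adjusted p = 0.0122), by 0.57 ± 0.0731 from 16 to 18 dpp (SE; adjusted p = 1.74e-06) and by 1.24 ± 0.0844 from 8 to 18 dpp (SE; adjusted p = 7.68e-13). The step from 14 to 16 dpp was not called without mouse 1 of 16 dpp (-0.21, adjusted p = 0.0518). Adult samples held 2.10, 1.69, 1.55 and 1.73 TPM, the lowest of the 8 genes there. Relative to Pabpc1 it dropped by 3.05 on the log2 scale from 8 to 18 dpp (exact p = 0.0357, adjusted p = 0.0476) and at each of the 4 steps from 10 dpp on (exact adjusted p = 0.0173 each). Of its 2920 windows of 100 bases, 1463 (50.1%) were found exactly in other annotated genes, 1432 of them in Gm10110, so its value rests on how the authors' counting split such reads. Gm10110 was listed at up to 0.52 TPM at 8 dpp, at up to 0.73 TPM at 18 dpp and at 0 in adult samples.

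Pabpn1 (ENSMUSG00000022194, GRCm38 chr14:54892500-54898169, plus strand), the nuclear poly(A) binding protein, was highest in the youngest mice. It stood at 528, 524 and 484 TPM at 8 dpp, at 503, 513, 453, 467 and 436 TPM at 10 dpp and at 315, 331, 387, 356 and 336 TPM at 12 dpp. Those of 10 and 12 dpp did not overlap, and this was the only member whose largest step came before 14 dpp, with a fall of 0.46 ± 0.0609 on the log2 scale (SE; adjusted p = 3.50e-06). At 18 dpp levels were 279, 290, 273, 301 and 288 TPM, a fall of 0.84 ± 0.0703 from 8 dpp (SE; adjusted p = 4.83e-11). Steps of -0.20 from 14 to 16 dpp and -0.16 from 16 to 18 dpp were called (adjusted p = 0.0189 and 0.0252), but neither was called with median-of-ratios factors, with which the second was 0.00 (adjusted p = 0.955). The first was also lost without mouse 7 of 14 dpp (adjusted p = 0.0645) or mouse 1 of 16 dpp (adjusted p = 0.0739), and the second with no filter (adjusted p = 0.0545), in mice 1 to 3 alone (adjusted p = 0.0731), and without mouse 3 (adjusted p = 0.0624) or 5 (adjusted p = 0.0625) of 16 dpp or mouse 1 (adjusted p = 0.0527) or 3 (adjusted p = 0.0640) of 18 dpp. Adult samples held 178, 165, 166 and 165 TPM. The annotated readthrough gene Gm20521 shared 553 of 931 windows (59.4%) with Pabpn1 and averaged 16.0 and 5.10 TPM at 8 and 18 dpp.

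Calls of the 8 genes were not spread evenly over the steps of the first wave, and neither were those of all genes. Between 8 and 10 dpp none was called (1.2% of all genes), and between 10 and 12 dpp 2 were called, Pabpc1 higher and Pabpn1 lower (21.4% of all genes). With median-of-ratios factors Cstf2 (adjusted p = 0.0218) and Pabpc4 (adjusted p = 0.0127) were called lower there, and Pabpc1 was not called. No member was called between 12 and 14 dpp, where 0.172% of all genes were. Before adjustment over all genes, the limma test of Pabpc2 alone passed the same threshold between 12 and 14 dpp, and that of no member did between 8 and 10 dpp. Between 14 and 16 dpp 6 were called, 3 higher and 3 lower (24.0% of all genes), and between 16 and 18 dpp 7, of which 4 were higher and 3 lower (54.0% of all genes). Without mice 1 and 5 of 16 dpp, none of the 3 falls from 14 to 16 dpp was called. Their adjusted p was then 0.104 for Cstf2, 0.143 for Pabpc4 and 0.115 for Pabpn1, while the 3 rises were still called.

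At 18 dpp mice 1 to 3 had a mean Papolb level of 120 TPM and mice 4 and 5 one of 37.2 TPM, and those of Pabpc2 were 324 and 97.4 TPM, with no overlap between the sets. Cstf2 was lower in mice 1 to 3 than in mice 4 and 5 (means of 29.0 and 39.0 TPM), as was Pabpc4 (32.1 and 41.8 TPM). The summed spermatocyte markers moved with them, at 4834, 4964 and 4860 TPM in mice 1 to 3 and 3110 and 3080 TPM in mice 4 and 5, while the summed Sertoli markers were 3279, 3229 and 3368 TPM against 4106 and 4195 TPM. Their part in these differences was not tested. At 16 dpp mice 1 and 5, the highest in Papolb and Pabpc2, also had the highest sums of spermatocyte markers (2661 and 1982 TPM against 1379 to 1707 TPM in the other mice). From 10 to 18 dpp, the log2 fold change within mice 1 to 3 and within the later-numbered mice was 5.73 and 4.04 for Papolb, 8.29 and 6.62 for Pabpc2, 0.72 and 0.45 for Cstf2t, -1.11 and -0.76 for Cstf2 and -1.30 and -0.86 for Pabpc4. All 8 genes had the same sign in both sets. These values carry no test, and whether the numbers mark a batch was not stated.

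**Figure D3:**
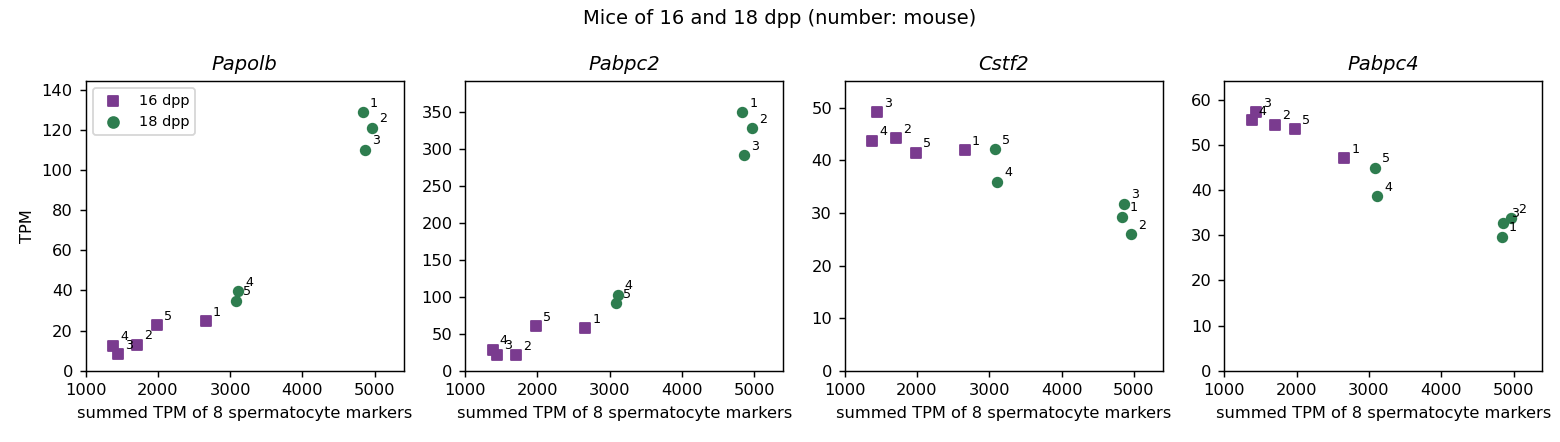
Each point is 1 mouse of 16 dpp (purple squares) or 18 dpp (green circles), labelled with its number, with the summed TPM of 8 spermatocyte markers on the horizontal axis, which does not start at 0, and the TPM of the gene on the vertical axis, which starts at 0. Mice 1 to 3 of 18 dpp lie apart from mice 4 and 5 in all 4 panels, above them for Papolb and Pabpc2 and below them for Cstf2 and Pabpc4.

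Transcript shares were compared between 18 and 8 dpp as the percentage that a transcript contributed to the TPM of its gene. The single-exon genes have 1 transcript each, and of the 55 transcripts of all members 39 could be tested. The share of 5 had changed, against 13.5% of the transcripts tested in all genes, so the members were near the share of all genes. With 1 mouse left out in turn the count was 4 to 6. Cstf2-201, a 14-exon coding transcript, rose from 54.1% ± 4.51 (SD, n = 3) to 69.3% ± 5.80 (SD, n = 5) of Cstf2 (adjusted p = 0.00558), and the 11-exon Cstf2-202 fell from 18.1% ± 1.98 (SD, n = 3) to 7.81% ± 1.80 (SD, n = 5) (adjusted p = 0.00223). Neither pair of ranges overlapped. In TPM both were lower at 18 dpp, 22.7 ± 3.69 (SD, n = 5) against 32.3 ± 1.54 (SD, n = 3) for Cstf2-201 and 2.55 ± 0.638 (SD, n = 5) against 10.8 ± 1.53 (SD, n = 3) for Cstf2-202. Pabpn1-202, a coding transcript of 6 exons, went from 7.25% ± 0.141 (SD, n = 3) to 16.9% ± 1.77 (SD, n = 5) of Pabpn1 (adjusted p = 0.00132), and it was 37.1 ± 2.24 TPM (SD, n = 3) at 8 dpp and 48.6 ± 6.50 TPM (SD, n = 5) at 18 dpp while the gene as a whole fell. The most abundant transcript, Pabpn1-201, went from 59.4% ± 2.88 (SD, n = 3) to 47.7% ± 4.38 (SD, n = 5) without overlap. It was not called (adjusted p = 0.0636). The other 2 of the 5 changed shares were those of minor transcripts of Papola, Papola-219 (6.71% to 2.59%, adjusted p = 0.00590) and Papola-217 (3.54% to 0.408%, adjusted p = 0.0201), and none of the 7 tested transcripts of Pabpc1 or the 4 of Pabpc4 had changed.

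The other genes of the poly(A) pathways were read from 4 lists with 55 genes, of which 51 passed the filter of 3 TPM in at least 1 mouse. Of these 17 were higher and 20 lower at 18 than at 8 dpp (72.55% called). Among all genes 31.8% were higher and 36.3% lower (68.2% called), so the lists were near the share of all genes. The median log2 fold change was -0.03 beside -0.09 over all genes. Among 17 factors of nuclear cleavage and polyadenylation, 7 were higher, 5 lower and 5 not called (70.6% called), with a median of 0.09. Cstf1 and Cstf3, which encode the other subunits of CstF, had the largest rises, from 34.8 ± 2.48 TPM (SD, n = 3) to 57.2 ± 15.3 TPM (SD, n = 5) and from 34.5 ± 6.37 TPM (SD, n = 3) to 51.3 ± 3.54 TPM (SD, n = 5) (adjusted p = 3.47e-04 and 1.31e-05). Cpsf6, of the cleavage factor CFIm, and Rbbp6 fell by 0.43 and 0.35 on the log2 scale (adjusted p = 5.60e-05 and 1.49e-05). With median-of-ratios factors only 2 of these factors were called lower, and 3 were without mouse 1 or 3 of 8 dpp or mouse 2 of 18 dpp.

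Of 13 further poly(A) binding proteins and partners 9 were tested. Of these 5 were higher and 4 lower (100% called, against 68.2% of all genes), with a median of 0.50. The untested Pabpc1l, Pabpc4l, Pabpc5 and Pabpn1l averaged at most 1.66 and 1.29 TPM at 8 and 18 dpp. Pabpc6, another cytoplasmic poly(A) binding protein gene, followed the course of Pabpc2, at 0.367 ± 0.140 TPM (SD, n = 3) at 8 dpp, 180 ± 98.1 TPM (SD, n = 5) at 18 dpp (log2 fold change 6.83, adjusted p = 2.29e-14) and 762 ± 46.7 TPM (SD, n = 4) in adult samples. The initiation factor genes Eif4g1 and Eif4g3, whose products bind PABPC1, moved apart: Eif4g1 fell by 0.56 on the log2 scale (adjusted p = 4.15e-08) from 222 ± 5.49 TPM (SD, n = 3) to 151 ± 12.9 TPM (SD, n = 5), and Eif4g3 rose by 1.41 (adjusted p = 9.61e-11) from 55.9 ± 0.950 TPM (SD, n = 3) to 154 ± 38.1 TPM (SD, n = 5). Paip2, a PABPC1-binding repressor of translation, fell by 0.54 (adjusted p = 3.37e-07).

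**Figure D4:**
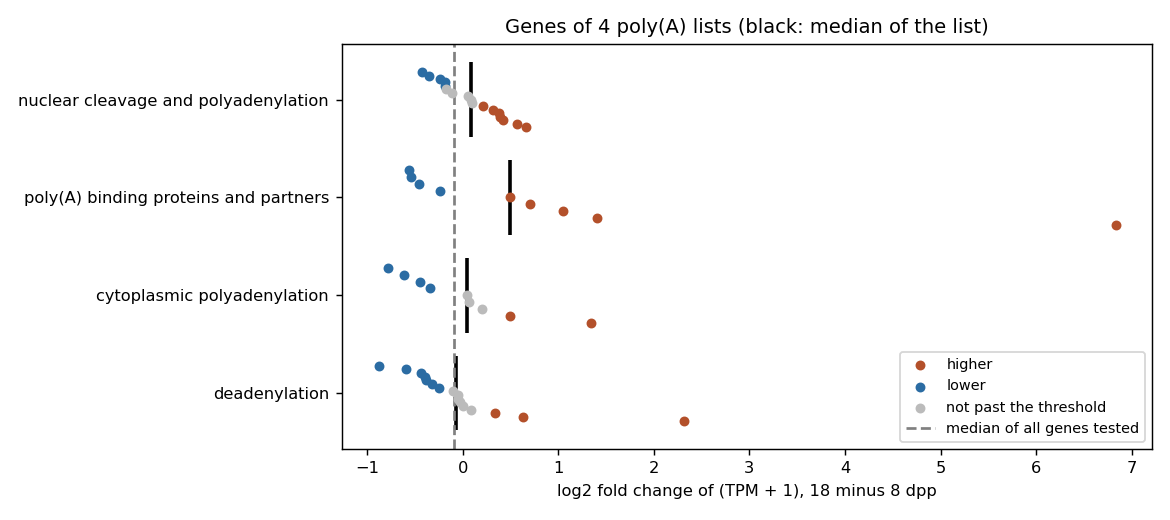
Each point is 1 gene of 4 lists of poly(A) factors, with the log2 fold change of (TPM + 1) from 8 to 18 dpp on the horizontal axis, colours for genes called higher, called lower or not past the threshold, black lines at list medians and a dashed line at the median of all genes tested. The points of each list lie on both sides of 0, and the point at 6.83 is Pabpc6.

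The list named cytoplasmic polyadenylation held Cpeb1, Cpeb2, Cpeb3, Cpeb4, Tent2, Tent4a, Tent4b, Mtpap and Tut1. Where in the cell their products act was not measured, and not all need act in the cytoplasm. Of its 9 genes 2 were higher, 4 lower and 3 not called (66.7% called, against 68.2% of all genes), with a median of 0.05. With median-of-ratios factors 4 were higher. Cpeb2, of the CPEB proteins that recruit the machinery to cytoplasmic mRNA, rose from 17.5 ± 0.217 TPM (SD, n = 3) to 46.4 ± 8.08 TPM (SD, n = 5) (adjusted p = 4.67e-09), and the terminal uridylyltransferase gene Tut1 rose by 0.49 on the log2 scale (adjusted p = 9.92e-04). The noncanonical polymerase genes Tent2 and Tent4a fell by 0.78 and 0.61 (adjusted p = 2.59e-07 and 2.65e-06). Of 16 deadenylation genes 3 were higher, 7 lower and 6 not called (62.5% called, against 68.2% of all genes), with a median of -0.08. With median-of-ratios factors 5 were higher. The deadenylase genes Parn and Cnot6l fell by 0.88 and 0.59 (adjusted p = 3.21e-08 and 1.70e-06), Cnot1, the scaffold of the CCR4-NOT complex, rose by 0.63 (adjusted p = 7.53e-06), and Btg4, whose product recruits that complex, rose from 0.120 ± 0.208 TPM (SD, n = 3) to 4.58 ± 1.09 TPM (SD, n = 5) (adjusted p = 1.51e-09).

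Among the genes whose course over the 28 mice was most like that of Papolb were Tmem97 (r = 0.996) and Crat (r = 0.996), by Pearson's r of log2(TPM + 1). Those most like Pabpc2 were Qrich2 (r = 0.997), Adam32 (r = 0.997) and Gykl1 (r = 0.997), and those most like Cstf2t were Cul3 (r = 0.946), Rbm44 (r = 0.946) and Eif5 (r = 0.945). Tmem97 and Crat had mean levels of 51.7 and 22.4 TPM at 8 dpp, well above that of Papolb, whereas those alike to Pabpc2 were at 0.113 to 0.430 TPM. All points share the age course of the same 28 mice, so these values only describe which genes have a similar course.

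In the adult samples the order of the 8 genes by mean level was Pabpc1 (2857 ± 50.1 TPM, SD, n = 4), Pabpc2 (889 ± 51.8 TPM), Papolb (343 ± 12.8 TPM), Pabpn1 (168 ± 6.49 TPM), Papola (92.0 ± 10.2 TPM), Cstf2t (56.8 ± 1.96 TPM), Cstf2 (5.07 ± 1.34 TPM) and Pabpc4 (1.77 ± 0.235 TPM), and no neighbours in that order overlapped. At 8 dpp it had been Pabpn1, Pabpc1, Papola, Pabpc4, Cstf2, Cstf2t, Papolb and Pabpc2. For each of the 8 genes the 4 adult values lay outside the range of 18 dpp, on the side to which the gene had moved from 8 to 18 dpp, as did those of 62.7% of all genes found in both tables. The adult values come from other libraries in a separate table and carry no test against the juvenile mice. Markers of spermatids were present in them, with a summed level of 872 to 1189 TPM over Prm1, Prm2, Tnp1, Tnp2, Acrv1 and Spaca1 against 6.13 to 17.0 TPM at 18 dpp, and their part in the adult levels was not tested.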

How the data were processed

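The authors made poly(A) libraries with the Illumina TruSeq method from germ cells of juvenile mice, 5 at each age, and from 4 adult spermatocyte samples, sequenced 100 bp paired-end reads, aligned them with Bowtie 1.0.0 to an mm10 transcriptome of Ensembl release 75, NONCODE 4 and piRNA precursors, and estimated abundance with RSEM 1.2.8. They dropped 2 mice of 8 dpp that matched the others of that age poorly, so that 28 juvenile mice remained and the spread at 8 dpp is that of the mice kept. The deposited transcript table and adult table hold TPM. The deposited juvenile gene table was named TPM, but its values are a score, exp(log2(TPM + 1)) - 1, that was converted back to TPM, and the 8 members then differed from the summed transcripts by at most 0.03 TPM. A column with the authors' assignment of genes to substages was not used. TPM keeps no read numbers, so the depth is unknown and the spread between samples is the only error given.

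Groups came from the sample labels, and mice 6 and 7 of 14 dpp are numbered as in their titles. The juvenile table held genes with at least 3 TPM in at least 1 mouse. Log2(TPM + 1) was fitted with limma 3.58.1 in R 4.3.3, with 1 mean per age and the trend option for the prior variance, and p-values were adjusted over all genes by the Benjamini-Hochberg method. Transcript shares were fitted alike, in genes of mean at least 3 TPM with at least 2 transcripts of mean 1 TPM or more. Ratios were compared by two-sided exact permutation tests (Python 3.11.15, scipy 1.17.1). Fits were tested on simulated data. Coding sequences and gene intervals came from GENCODE M21 on GRCm38 and were aligned with Biopython 1.88, and promoters came from RefSeq. The labels do not say whether mice of an age shared a litter or a day of preparation.

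The members and lists were chosen with earlier results of these data known. Named genes are the 8 members, the 2 largest rises and the 2 largest falls among called genes of each list, and for Papolb, Cstf2t and Pabpc2 the 3 genes of highest correlation, 1 of which is not reported here. Overlapping and marker genes are named where a value rests on them. The Sertoli, spermatogonium, spermatocyte and spermatid lists are described with the results; of the other marker lists, 3 of 6 Leydig genes were higher and none lower at 18 dpp, 1 of 5 peritubular genes was lower and none higher, and 4 of 5 macrophage genes were higher and none lower. Alternatives were the pseudocount (0.1 and 3), the filter (1 TPM, none), the normalization, the prior variance, the ages and mice in the fit, the set of mice or the replicate number as a term, summed transcripts, and each sample left out in turn. The values within sets of mice and without mice 1 and 5 of 16 dpp were chosen after seeing the data.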

Additional observations from a re-analysis of the deposited data

Results flagged for a closer look

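Of 48 groups of 4 or 5 samples, 4 held a sample whose gap to the nearest other was larger than Dixon's 95% critical value allows, where chance flags about 1 in 20 groups. Papola at 18 dpp was 191 TPM in mouse 5, and the next mouse had 164 TPM. Cstf2t at 16 dpp was 44.0 TPM in mouse 1, and the next had 34.7 TPM. Pabpc2 at 10 dpp was 0.10 TPM in mouse 2 and listed at 0 in the others. Any level above 0 in mouse 2 would have been flagged there, so the rate of 1 in 20 does not apply to that group. Pabpn1 in adult samples was 178 TPM in replicate 1, and the next had 166 TPM.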

How the results depend on the processing

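The 18 against 8 dpp fold changes of Papolb, Cstf2, Cstf2t, Pabpc1, Pabpc2, Pabpc4 and Pabpn1 kept their direction and their call under every alternative tried. That of Papola was -0.01 (not called) with median-of-ratios factors, -0.18 (adjusted p = 0.0571) with only 8 and 18 dpp in the model, and -0.23 to -0.14 with 1 mouse left out in turn. For Pabpn1 the fold change of 18 against 16 dpp was 0.00 with median-of-ratios factors. With 1 sample left out in turn, the adult means moved by less than 1 SD. The steps of Cstf2 and Pabpc4 from 10 to 12 dpp were called without mouse 5 of 18 dpp (adjusted p = 0.0449 and 0.0211), and that of Pabpc4 also without mouse 1 of 18 dpp (adjusted p = 0.0430) and in mice 1 to 3 alone (adjusted p = 0.0381).

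Ratios from 8 to 18 dpp kept their direction, at 5.14 to 5.66 for Papolb/Papola, 1.26 to 1.51 for Cstf2t/Cstf2, 5.65 to 6.02 for Pabpc2/Pabpc1 and -3.20 to -2.93 for Pabpc4/Pabpc1 with 1 mouse left out, but could lose the call, because with 2 against 5 or 3 against 4 mice the exact test cannot reach the threshold after adjustment, and with fewer mice at another age the adjustment over 24 comparisons alone raised the value. In mice 1 to 3 alone they were 6.05, 1.61, 6.31 and -3.38 and could not be called (exact adjusted p = 0.141). List counts moved with median-of-ratios factors to 2 nuclear factors lower, 4 genes of the list named cytoplasmic polyadenylation higher and 5 deadenylation genes higher. With 1 mouse left out, nuclear factors called lower were 3 to 6. The cause was not tested.

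Among all genes, the count called between 12 and 14 dpp (35) was 9 with a pseudocount of 3, 7 with no filter, 16 with median-of-ratios factors, 12 with quantile normalization, 1 in mice 1 to 3, 91 without mice 1 and 5 of 16 dpp and 2 to 129 with 1 mouse left out. That between 14 and 16 dpp (4890) was 2032 without mice 1 and 5 of 16 dpp, and that between 8 and 10 dpp (245) was 106 to 288 with 1 mouse left out. With the replicate block, the counts were 131 between 8 and 10 dpp and 0 between 12 and 14 dpp. Of 57 same-numbered pairs of mice from different ages, 3 correlated above 0.1 in their deviations (median r = 0.015, highest r = 0.253). These values cannot show whether same-numbered mice shared a litter or a day of preparation. The replicate block changed no call of a member.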
